A study of Mus musculus with 6 samples.

Results

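The unfolded protein response and protein folding in the endoplasmic reticulum (ER) were described here through 33 genes, listed by name from their known roles, with earlier results of these data known. They were 11 chaperones and their helpers, 4 protein disulfide isomerases, 8 stress sensors and transcription factors, 6 genes of ER-associated degradation and 4 targets of ATF4 and CHOP. The table held 54446 gene rows, and the 33 names matched 34 of them, because Ddit3 was listed under a second identifier with a count of 0 in every library. The test covered 15068 genes, 32 of the 33 among them. Derl3 was left out by the filter on low counts.

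RNA was sequenced from intestinal epithelium of 3 Prkci flox/flox mice carrying Villin-CRE, called knockout, and of 3 Prkci flox/flox mice without it, called control. Prkci encodes an atypical protein kinase C that acts in epithelial polarity. Villin-CRE recombines the floxed gene in intestinal epithelial cells, so other cell types in a preparation keep it. No control carried CRE, so the transgene and the deletion cannot be told apart. The mice were co-housed, 3 to 4 months old and of both sexes. The titles name jejunum and the series text jejunum with ileum. Each library came from a separate mouse.

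The ER folds proteins that are to be secreted or placed in membranes, with chaperones that hold unfolded chains and isomerases that form disulfide bonds. When unfolded protein accumulates, IRE1, PERK and ATF6 in the ER membrane start the unfolded protein response: IRE1 splices Xbp1 mRNA, PERK slows translation while ATF4 is made, and ATF6 is cut to release a transcription factor. ATF6 and XBP1 act largely on chaperone and degradation genes, and ATF4 on amino acid and feedback genes. Gene-level counts show neither splicing of Xbp1 mRNA nor the translation or cleavage of these factors.

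ATF6 is known to bind the ER stress response element, in which CCAAT and CCACG lie 9 bases apart. It was searched on both strands in RefSeq promoter windows of the mouse build GRCm38.p6, each 250 bases before to 50 after a gene's start as RefSeq gives it. Windows were found for 29 of the 33 genes, all but Hyou1, Ern2, Atf6 and Manf. The element was in 9 of those 29 windows (31%), against 39 of the 32851 windows of all genes (0.119%). The genes were listed from known roles that include being targets of ATF6. A raised share therefore follows from how the list was made and is not a result of these data. The 10 elements are shown because the genes that carry them include those with the largest differences in the sections that follow. Each is written 5′ to 3′ from CCAAT, on whichever strand holds it, with CCAAT and CCACG in capitals.
Syvn1: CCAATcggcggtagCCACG
Creld2: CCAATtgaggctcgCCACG
Hspa5: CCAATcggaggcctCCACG
Pdia6: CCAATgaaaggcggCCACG
Calr: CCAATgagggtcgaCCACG
Hsp90b1 on the strand of the gene: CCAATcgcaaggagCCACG
Hsp90b1 on the other strand: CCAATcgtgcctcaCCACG
Dnajc3: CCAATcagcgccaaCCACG
Canx: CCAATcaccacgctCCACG
Derl3: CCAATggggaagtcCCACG

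On GRCm38.p6 these elements lay at chr19:6046532-6046550 on the plus strand (Syvn1), chr15:88819520-88819538 on the minus strand (Creld2), chr2:34772025-34772043 on the plus strand (Hspa5), chr12:17266491-17266509 on the plus strand (Pdia6) and chr8:84847075-84847093 on the plus strand (Calr). The others lay at chr10:86705638-86705656 on the minus strand (Hsp90b1), chr10:86705533-86705551 on the plus strand (Hsp90b1), chr14:118937827-118937845 on the plus strand (Dnajc3), chr11:50325800-50325818 on the minus strand (Canx) and chr10:75893242-75893260 on the minus strand (Derl3). Hsp90b1 carried an element on each strand, and its window was the sole one among the 29 with more than 1.

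The 250 bases before the start are shown for the 6 tested genes with the smallest p-values among those with an element, because these show where the element sits in each promoter. Each is written in the direction of the gene, and the capitals mark the same bases. Where the element runs against the gene, the capitals read CGTGG and ATTGG.
Syvn1: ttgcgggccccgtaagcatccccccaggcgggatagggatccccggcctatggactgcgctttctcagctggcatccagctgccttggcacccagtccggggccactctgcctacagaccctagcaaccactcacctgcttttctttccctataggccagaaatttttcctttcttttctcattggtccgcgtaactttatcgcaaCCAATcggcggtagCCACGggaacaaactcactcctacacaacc
Creld2: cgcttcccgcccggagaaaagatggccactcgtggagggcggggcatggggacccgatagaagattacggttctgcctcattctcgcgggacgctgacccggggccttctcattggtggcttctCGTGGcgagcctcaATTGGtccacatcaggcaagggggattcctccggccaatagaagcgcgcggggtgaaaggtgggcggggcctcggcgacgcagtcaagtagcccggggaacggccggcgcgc
Hspa5: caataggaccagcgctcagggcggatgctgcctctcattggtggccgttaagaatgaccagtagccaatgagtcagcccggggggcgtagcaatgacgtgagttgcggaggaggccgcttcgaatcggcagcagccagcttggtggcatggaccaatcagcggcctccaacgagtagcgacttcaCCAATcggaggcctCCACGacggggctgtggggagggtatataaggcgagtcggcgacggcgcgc
Pdia6: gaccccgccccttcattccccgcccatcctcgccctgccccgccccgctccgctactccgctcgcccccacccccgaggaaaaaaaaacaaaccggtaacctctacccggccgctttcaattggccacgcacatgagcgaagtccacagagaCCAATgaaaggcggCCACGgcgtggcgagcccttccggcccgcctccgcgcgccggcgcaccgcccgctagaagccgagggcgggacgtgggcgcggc
Calr: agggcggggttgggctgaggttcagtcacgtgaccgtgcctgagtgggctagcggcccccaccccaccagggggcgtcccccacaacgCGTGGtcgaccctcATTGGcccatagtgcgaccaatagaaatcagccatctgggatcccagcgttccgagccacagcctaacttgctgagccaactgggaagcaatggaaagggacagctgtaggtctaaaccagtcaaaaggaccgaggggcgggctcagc
Hsp90b1: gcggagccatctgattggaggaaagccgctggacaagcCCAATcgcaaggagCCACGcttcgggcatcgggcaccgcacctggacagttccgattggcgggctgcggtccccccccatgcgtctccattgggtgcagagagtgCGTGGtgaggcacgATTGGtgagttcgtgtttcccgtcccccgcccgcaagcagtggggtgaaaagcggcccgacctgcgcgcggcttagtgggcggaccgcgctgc

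These windows were chr19:6046326-6046575 on the plus strand (Syvn1), chr15:88819396-88819645 on the plus strand (Creld2) and chr2:34771840-34772089 on the plus strand (Hspa5). The other 3 were chr12:17266339-17266588 on the plus strand (Pdia6), chr8:84846932-84847181 on the minus strand (Calr) and chr10:86705445-86705694 on the minus strand (Hsp90b1). Between the element and the gene's start lay 25 bases in Syvn1, 46 in Hspa5, 79 in Pdia6, 107 in Creld2 and 143 in Calr. In Hsp90b1 the distances were 88 and 193 bases. The other 3 genes with an element were Canx, Dnajc3 and Derl3, at 126, 86 and 137 bases. A match of letters does not show that a factor binds there.

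The core of the XBP1 site, TGACGTGG, was in none of the 29 windows and in 0.676% of all windows, which says only that these letters are not in those windows. The core of the ATF4 site, TGATGNAA, was in 5 of the 29 windows (17.2%), against 3.97% of all windows. The list holds known targets of ATF4, so this raised share is likewise not a result of these data. The 5 stretches are shown because Atf3 and most of the ATF4 targets described here carry one. Each is 28 bases long, read in the direction of the core, with the core in capitals.
Atf3: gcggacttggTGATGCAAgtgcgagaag
Asns: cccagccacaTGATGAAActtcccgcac
Trib3: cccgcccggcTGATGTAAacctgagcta
Herpud1: gggtgcgggcTGATGCAAcccgccgtgg
Chac1: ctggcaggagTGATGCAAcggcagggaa

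They lay at chr1:191183426-191183453 on the plus strand (Atf3), chr6:7693215-7693242 on the minus strand (Asns), chr2:152344029-152344056 on the plus strand (Trib3), chr8:94386307-94386334 on the minus strand (Herpud1) and chr2:119351039-119351066 on the minus strand (Chac1). Trib3's core lay past the gene's start, and the others lay 15 to 185 bases before it.

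Libraries held 18972906 to 26687856 counts in the knockout and 22453798 to 23008047 in the control. Values are given in CPM, counts scaled to a common library size of 1e6,, computed here with edgeR's trimmed-mean scaling, and differences as log2 fold changes, knockout over control, with their standard error (SE). In knockouts 1, 2 and 3, Prkci had 21.5, 14.6 and 21.4 CPM, against 44.6, 46.9 and 44.0 CPM in controls 1, 2 and 3. It was lower in every knockout, as the labels would have it, with a log2 fold change of -1.24 (SE 0.17). Its adjusted p was 0.0719 by edgeR's quasi-likelihood test and 9.92e-08 by DESeq2. Xist and Ddx3y counts went against the sex in the series text for 3 libraries, namely knockout 3 and controls 2 and 3. By these counts knockouts 2 and 3 and control 3 were female. Enterocyte markers were high throughout, with a summed 57468 to 73834 CPM over 12 genes in the knockout and 55076 to 64725 CPM in the control.

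Knockouts 2 and 3 held more RNA of the ER folding genes than any control, and knockout 1 did not. The 33 genes together took 0.628%, 1.20% and 1.11% of all counts in knockouts 1, 2 and 3, against 0.768%, 0.670% and 0.719% in controls 1, 2 and 3. Their mean log2 CPM was 5.93, 6.78 and 6.71 in knockouts 1, 2 and 3, against 6.01, 5.97 and 6.11 in the controls. The means were 6.47 ± 0.47 in the knockout and 6.03 ± 0.075 in the control (SD, n = 3 each), a difference of 0.44. Knockout 1 lay below all 3 controls, and the groups overlapped. Leaving out 1 library at a time moved the difference between 0.29 (without knockout 2) and 0.71 (without knockout 1). Over all 15068 genes the mean was 3.48 in the knockout and 3.45 in the control. In bulk samples, more cells of a type and more RNA per cell cannot be told apart.

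Gene by gene, 25 of the 32 tested genes lay above all 3 controls in knockout 2, as did 35.8% of all tested genes, and 25 of 32 in knockout 3, as did 33% of all. In knockout 1, 5 of 32 lay above, as did 31% of all, and 12 lay below, as did 32.6% of all. The split was sharpest in the 15 chaperones and isomerases, of which knockouts 2 and 3 had 14 above the controls and 0 below, while knockout 1 had 0 above and 10 below. Relative to the control mean these 15 genes ranged from 0.639 to 0.986 in knockout 1, from 0.953 to 3.72 in knockout 2 and from 0.999 to 2.86 in knockout 3.

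**Figure D1:**
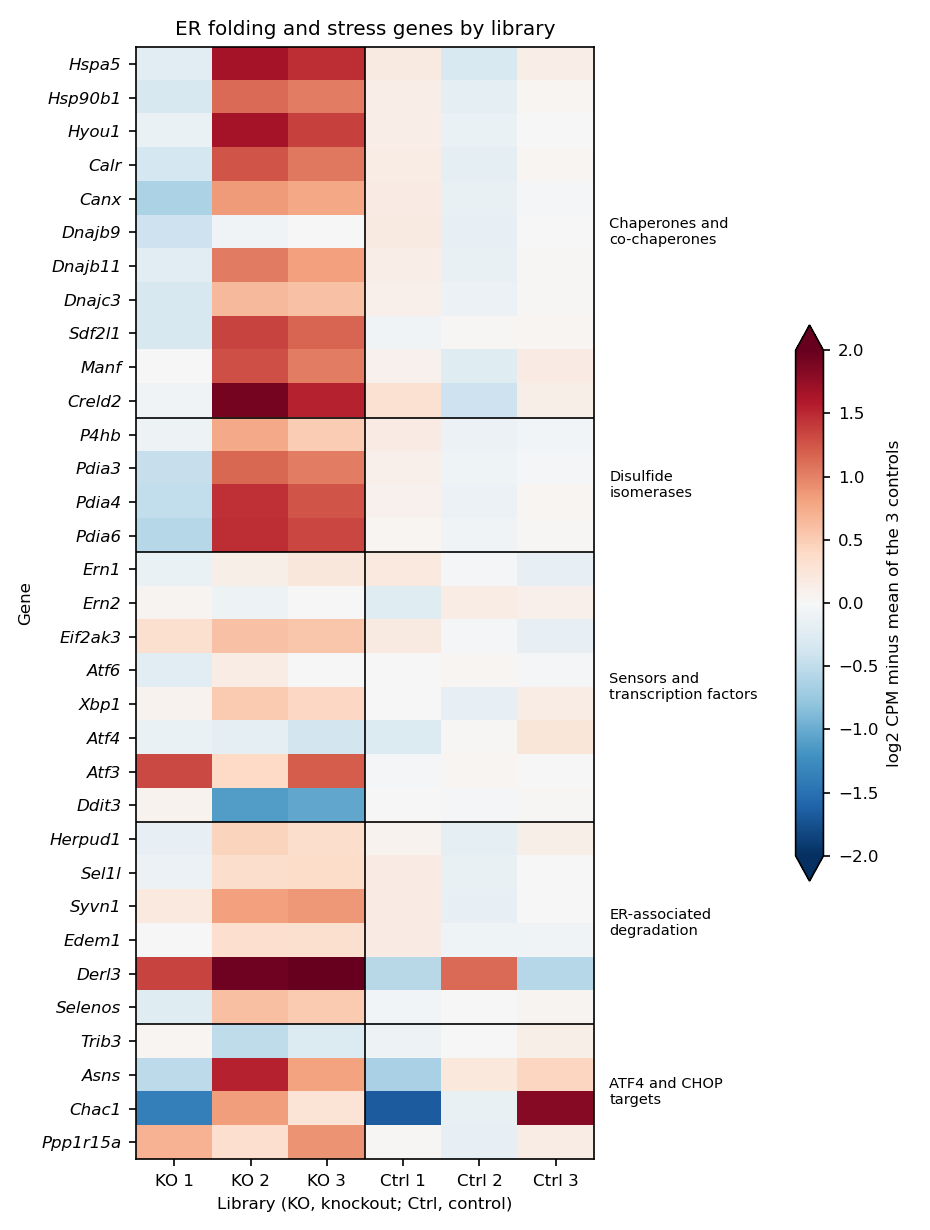
Log2 CPM of each of the 33 genes minus its control mean, by library, with the knockouts left of the controls and genes grouped by role. Chaperones and isomerases were above the control mean in knockouts 2 and 3, all but Dnajb9, and below it in knockout 1.

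Across the 6 libraries no gene of the 33 passed the adjusted threshold of 0.05 in edgeR's quasi-likelihood test (0 of 32), where 0.0531% of all tested genes were called higher and 0.00664% lower. At an unadjusted p under 0.05, 8 of 32 were higher, against 9.32% of all genes, and 0 were lower, against 7.09%. These 8 were Hspa5, Hyou1, Manf, Creld2, Eif2ak3, Atf3, Syvn1 and Ppp1r15a. With the replicate number as a block the 8 became 4, namely Eif2ak3, Atf3, Syvn1 and Ppp1r15a, while the share of all genes stayed at 9.32%. Without any 1 control they became 5, against 6.19% to 8.72% of all genes. Without knockout 2 or knockout 3 they became 4, against 7.57% and 7.13% of all genes. DESeq2 called 2 higher, Atf3 and Eif2ak3, where it called 3.6% of all genes higher, and limma-voom called 0, where it called 0.0265% of all genes higher. Unadjusted, DESeq2 had 16 higher, against 10.4% of all genes, and limma-voom had 5 higher, against 8.42%, and 1 lower, against 8.37%. The knockout libraries lay wholly above the control libraries for 4 of 32 genes, near the 10% of all genes that did so, and wholly below for 0, against 11.7% of all. The median log2 fold change was 0.47 over the 32 genes, 25 of them positive, and 0.01 over all genes tested.

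Without knockout 1, 20 of 33 genes passed as higher by edgeR's quasi-likelihood test, adjusted over all genes, where 10% of all tested genes did, and 1 of 33 as lower, where 7.44% did. Those higher were 14 of the 15 chaperones and isomerases, together with Eif2ak3, Xbp1, Atf3, Herpud1, Syvn1 and Selenos, and the lower one was Ddit3. Of these 20, Atf3 also passed without knockout 2, and Atf3 and Eif2ak3 passed by DESeq2 with all 6 libraries, while the others passed only where knockout 1 was left out, in the settings run. Each adjusted p without knockout 1 given for a single gene comes from this second fit, with knockouts 2 and 3 against the 3 controls. Knockouts 2 and 3 were both female by Xist and knockout 1 male, so in the knockout group sex and the split between libraries cannot be told apart. Controls 1 and 2 were male and control 3 female, so the fit without knockout 1 sets female knockouts mostly against male controls. It also leaves out the library that differed. Its adjusted p-values therefore do not test genotype apart from sex or from that choice. Among the 3 libraries female by Xist, both knockouts exceeded control 3 for 27 of 33 genes and for 14 of the 15 chaperones and isomerases (2 knockouts and 1 control, so no test is given). Among the 3 male by Xist, knockout 1 was above both controls for 0 of those 15 genes and below both for 10. The share of all tested genes that did so was not counted for either sex. These counts therefore only describe the libraries.

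**Figure D2:**
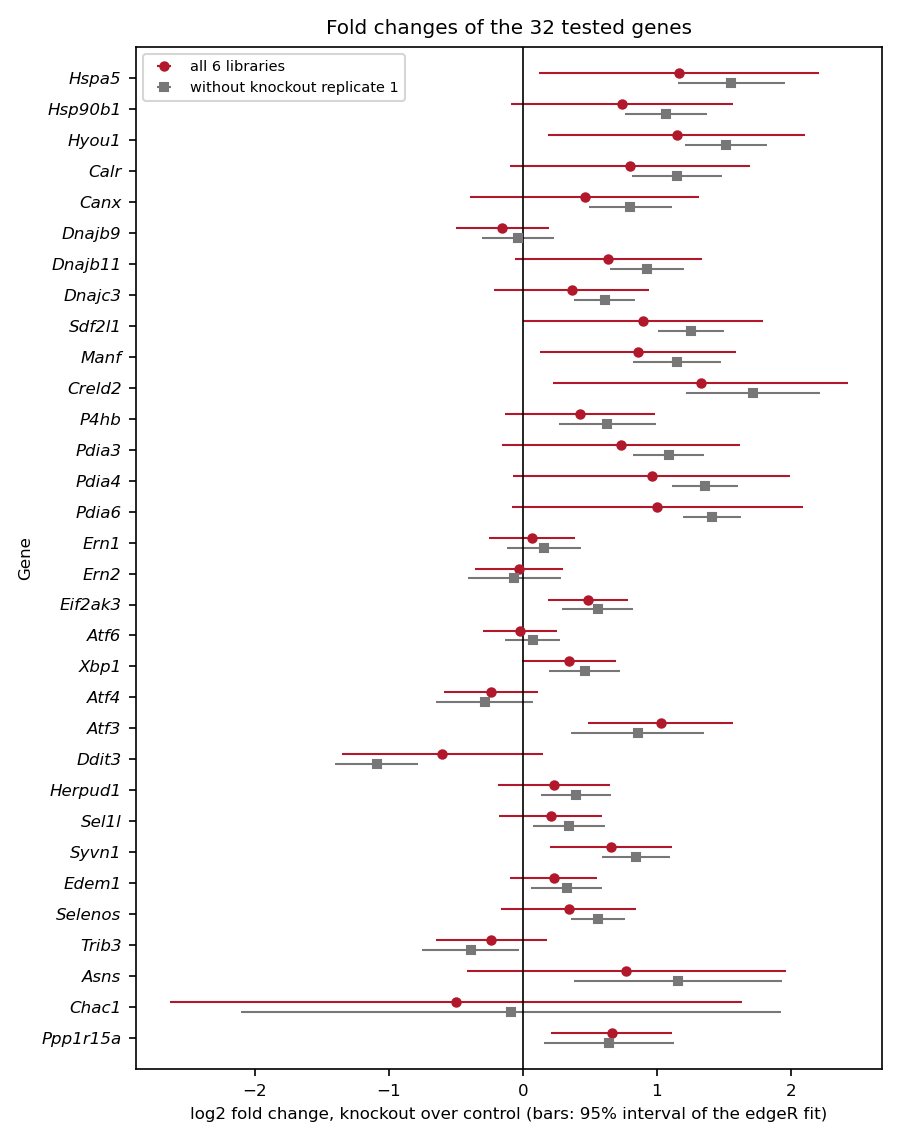
Log2 fold change of each tested gene, knockout over control, with its 95% interval, from edgeR on all 6 libraries and again without knockout 1. For the chaperones and isomerases the intervals are wide with all 6 libraries and narrower without knockout 1, where 14 of the 15 lie above 0. Ddit3 lies below 0 there.

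Among the 11 chaperones and their helpers, 10 had a positive log2 fold change over all 6 libraries, as did 7645 of the 15068 genes tested. At an unadjusted p under 0.05, 4 of 11 were higher, against 9.32% of all genes, and 0 passed after adjustment. Hspa5 (BiP, at chr2:34771970-34777547 on mm10), the main Hsp70 chaperone of the ER, had 400, 1462 and 1285 CPM in knockouts 1, 2 and 3, against 523, 373 and 504 CPM in controls 1, 2 and 3. Knockouts 2 and 3 were far above every control, and knockout 1 lay within the control range. Hspa5's log2 fold change was 1.17 (SE 0.44), with adjusted p = 0.263 by edgeR, and without knockout 1 it was 1.56, with an adjusted p of 0.00211. Hyou1 (chr9:44379490-44392369), a large chaperone of the Hsp70 family that helps BiP exchange nucleotide, had 149, 519 and 422 CPM in the knockouts, against 179, 149 and 165 CPM in the controls. It had the same order as Hspa5, with knockout 1 level with the lowest control, and its log2 fold change of 1.15 (SE 0.41) had an edgeR adjusted p of 0.239. Without knockout 1 its adjusted p was 0.00092 by edgeR.

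Creld2 (chr15:88819646-88826683), an ER protein with isomerase activity that is induced by ER stress, had the largest log2 fold change of the 32 tested genes. It had 17.7, 70.2 and 54.1 CPM in the knockouts, against 22.7, 13.8 and 20.1 CPM in the controls. Knockouts 2 and 3 were above every control and knockout 1 lay among them. Adjusted p by edgeR for the difference of 1.33 (log2, SE 0.47) was 0.237 with all 6 libraries and 0.00323 without knockout 1. Manf, a secreted factor held in the ER by BiP, had 62.6, 154 and 128 CPM in the knockouts, against 66.8, 53.3 and 70.4 CPM in the controls. Knockout 1 was again inside the control range, and the log2 fold change of 0.86 (SE 0.31) had an edgeR adjusted p of 0.247. Manf shares 146 exon bases with Dcaf1 on the other strand and 14 with Rbm15b, and whether counting used strand is not given in the sources used here.

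Calr, a lectin chaperone that binds calcium and holds glycoproteins while they fold, had the highest level per length of the chaperones, at 377 CPM per kb of exon in the knockout and 217 CPM per kb in the control. It had 488, 1488 and 1286 CPM in the knockouts, against 692, 545 and 636 CPM in the controls. Knockout 1 was below every control, and the log2 fold change of 0.80 (SE 0.38) had an adjusted p of 0.347 by edgeR, against 0.00325 without knockout 1. Its membrane partner Canx had a log2 fold change of 0.46, and Hsp90b1 (GRP94), the ER Hsp90, 0.74. The Hsp40 co-chaperones Dnajb11 and Dnajc3 had 0.64 and 0.36, and Sdf2l1, which works with Dnajb11, had 0.90. None of these 5 passed over 6 libraries. All 5 passed as higher without knockout 1, where 10% of all tested genes did, with edgeR adjusted p-values of 0.000861 to 0.00851.

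Dnajb9 (ERdj4), a co-chaperone that in cells represses IRE1, was the sole chaperone without a positive value. It had 49.5, 63.1 and 66.2 CPM in the knockouts, against 74.4, 58.5 and 65.8 CPM in the controls. Knockout 1 was the lowest of the 6 and the other 5 libraries overlapped. Its log2 fold change was -0.15 (SE 0.15), with a 95% interval of -0.50 to 0.19, and the edgeR adjusted p was 0.626, against 0.857 without knockout 1.

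The 4 protein disulfide isomerases, which form and reshuffle disulfide bonds in the ER, followed the chaperones library by library. P4hb, the classical isomerase, had the highest level per length of the 33 genes, at 1074 CPM per kb of exon in the knockout and 799 CPM per kb in the control. It had 2133, 3840 and 3242 CPM in the knockouts, against 2559, 2100 and 2200 CPM in the controls. Knockouts 2 and 3 were above every control and knockout 1 among them, and its log2 fold change of 0.43 (SE 0.24) had adjusted p = 0.407 by edgeR. Pdia6 (chr12:17266545-17284770), an isomerase also tied to IRE1 signalling, had 53.2, 220 and 200 CPM in the knockouts, against 81.3, 75.0 and 80.4 CPM in the controls. Its controls were close together, knockout 1 was below all of them and the other 2 knockouts were well above. Over all 6 libraries the difference was 1.00 on the log2 scale (SE 0.46, edgeR adjusted p 0.334), and it became 1.41 without knockout 1, with an adjusted p of 0.000383.

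Pdia4 and Pdia3 had log2 fold changes of 0.96 and 0.73 over all 6 libraries. Of the 4 isomerases, 0 passed by edgeR or by DESeq2 after adjustment. Without knockout 1 all 4 passed as higher by edgeR's adjusted p, where 10% of all tested genes did. The largest of the 4 was 0.0326 for P4hb, and the limits given above for that fit hold here.

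**Figure D3:**
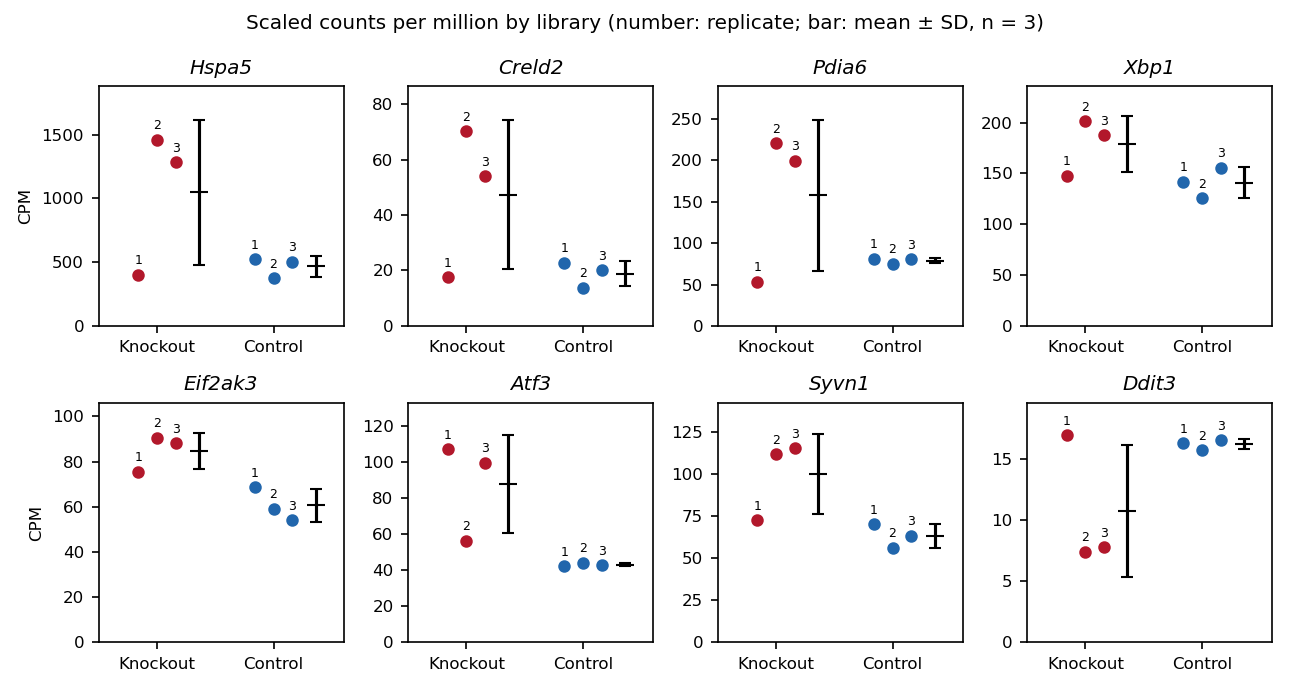
CPM in each library for Hspa5, Creld2, Pdia6, Xbp1, Eif2ak3, Atf3, Syvn1 and Ddit3, with knockouts left of controls and bars at the group mean ± SD (n = 3 each). In Hspa5, Creld2 and Pdia6 one knockout library sits with the controls or below them, in Eif2ak3, Atf3 and Syvn1 all 3 knockouts are above, and in Ddit3 the same library is level with the controls while the others are below.

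The sensors and transcription factors did not share one direction: of 8, 4 had a positive and 4 a negative log2 fold change. Eif2ak3 (PERK, chr6:70844515-70905245), the kinase that phosphorylates eIF2α under ER stress, had 75.6, 90.5 and 88.2 CPM in the knockouts, against 68.5, 59.2 and 54.1 CPM in the controls. All 3 knockouts were above all 3 controls, knockout 1 included. For a log2 fold change of 0.48 (SE 0.13), the adjusted p was 0.165 by edgeR, 0.0400 by DESeq2 and 0.0170 by edgeR without knockout 1.

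The other 3 sensors were close to level. Ern1 (IRE1α), the sensor found in most tissues, had 55.4, 65.7 and 70.6 CPM in the knockouts, against 69.1, 59.3 and 54.3 CPM in the controls. Ern2 (IRE1β), the form found in gut and airway epithelium and prominent in goblet cells, had 26.6, 23.8 and 25.6 CPM in the knockouts, against 21.6, 28.3 and 27.5 CPM in the controls. Both overlapped throughout, with log2 fold changes of 0.07 (95% interval -0.25 to 0.39) for Ern1 and -0.03 (95% interval -0.35 to 0.30) for Ern2, and the direction of each turned under other settings. Per kb of exon the control levels of Ern2 and Ern1 were 8.71 and 7.45 CPM. Atf6, the sensor that is itself a transcription factor precursor, had 78.4, 102 and 91.7 CPM in the knockouts, against 91.9, 94.1 and 90.1 CPM in the controls. The control values lay between those of the knockouts, and the log2 fold change was -0.02 (95% interval -0.30 to 0.26).

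Xbp1 (chr11:5520659-5525893), the factor that IRE1 activates by splicing, had 148, 201 and 188 CPM in the knockouts, against 142, 126 and 155 CPM in the controls. Knockouts 2 and 3 were above every control and knockout 1 within their range. Xbp1's log2 fold change of 0.34 (SE 0.15) had an edgeR adjusted p of 0.312 over 6 libraries and of 0.0314 without knockout 1. Atf4, which is regulated mostly at translation, had 121, 116 and 103 CPM in the knockouts, against 109, 135 and 156 CPM in the controls. The groups overlapped, and the log2 fold change was -0.24 (SE 0.15, edgeR adjusted p 0.46).

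Atf3 (chr1:191170296-191218039), a stress factor that acts downstream of ATF4 and of other stress pathways, had 107, 56.6 and 99.9 CPM in the knockouts, against 42.3, 44.2 and 42.9 CPM in the controls. All 3 knockouts were above all 3 controls, and here knockout 1 was the highest and knockout 2 the lowest of the knockouts. The difference of 1.03 (log2, SE 0.23) had an adjusted p of 0.124 by edgeR and of 0.00275 by DESeq2. Without knockout 2 it was 1.28, with adjusted p = 0.0276 by edgeR, and without knockout 1 it was 0.86, with adjusted p = 0.0327.

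Ddit3 (CHOP, chr10:127290774-127296288), a factor of prolonged ER stress linked to cell death, had the lowest log2 fold change of the 32. It had 16.9, 7.41 and 7.81 CPM in the knockouts, against 16.3, 15.7 and 16.5 CPM in the controls. Knockout 1 was level with the controls and the other 2 knockouts were well below them, so the library that stood apart for the chaperones did so here as well. Over 6 libraries its log2 fold change of -0.60 (SE 0.32) had adjusted p = 0.392 by edgeR, and without knockout 1 Ddit3 was lower at -1.09, with adjusted p = 0.00298. Ddit3 shares 68 exon bases with Mars on the other strand, so reads there cannot be told apart without strand.

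ER-associated degradation, which draws misfolded proteins out of the ER to the proteasome, showed smaller differences. Syvn1 (HRD1, chr19:6046576-6053712), its central ubiquitin ligase, had 72.5, 112 and 116 CPM in the knockouts, against 70.4, 56.3 and 63.5 CPM in the controls. Knockout 1 was just above the highest control and the other knockouts were well above. Syvn1's log2 fold change of 0.66 (SE 0.19) had an adjusted p of 0.185 by edgeR, 0.053 by DESeq2 and 0.00362 by edgeR without knockout 1. Syvn1 shares 91 exon bases with Mrpl49.

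Edem1, a lectin that helps pick glycoproteins for degradation, had 255, 320 and 316 CPM in the knockouts, against 283, 237 and 240 CPM in the controls. Sel1l, the partner that stabilises HRD1, had 215, 297 and 300 CPM in the knockouts, against 261, 210 and 232 CPM in the controls. In both, knockouts 2 and 3 were above every control, with log2 fold changes of 0.23 and 0.21, and neither passed with or without knockout 1. Herpud1, an ER membrane protein of the HRD1 complex, and Selenos, a selenoprotein of the same complex, had log2 fold changes of 0.23 and 0.34, and both passed as higher without knockout 1, with edgeR adjusted p-values of 0.0491 and 0.00633. Derl3, a derlin best known in secretory cells such as plasma cells, had 8, 15 and 21 counts in the knockouts, against 1, 8 and 1 in the controls. Knockout 1 and control 2 had the same count, and the groups were apart only after scaling to CPM. These counts were too low for the test over 6 libraries. Derl3 is counted among the 33 genes of the fit without knockout 1, but it passed the filter there only through knockouts 2 and 3. No p-value is therefore given for it.

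The 4 targets of ATF4 and CHOP went different ways. Ppp1r15a (GADD34), the phosphatase subunit that reverses eIF2α phosphorylation, had 11.2, 8.71 and 12.8 CPM in the knockouts, against 6.95, 6.12 and 7.62 CPM in the controls. All 3 knockouts were above all 3 controls, and the log2 fold change of 0.66 (SE 0.19) had an adjusted p of 0.182 by edgeR and 0.0524 by DESeq2. Asns, which makes asparagine, had 7.69, 32.6 and 19.5 CPM in the knockouts, against 7.08, 12.9 and 15.0 CPM in the controls. The controls themselves spread widely and overlapped with knockout 1, and the log2 fold change was 0.77 (SE 0.51, edgeR adjusted p 0.471).

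Chac1, which degrades glutathione, had 0.506, 2.66 and 1.76 CPM in the knockouts, against 0.396, 1.29 and 5.32 CPM in the controls. Control 3 was the highest and control 1 the lowest of all 6. The log2 fold change was -0.50 (SE 0.91) and became 0.95 without control 3, so its direction rests on that library. Trib3, a pseudokinase that feeds back on ATF4 and CHOP, had a log2 fold change of -0.23 (SE 0.18). Its knockouts 2 and 3 were below every control, and knockout 1 was within the control range. None of the 4 passed by edgeR after adjustment, with all libraries or without knockout 1.

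**Figure D4:**
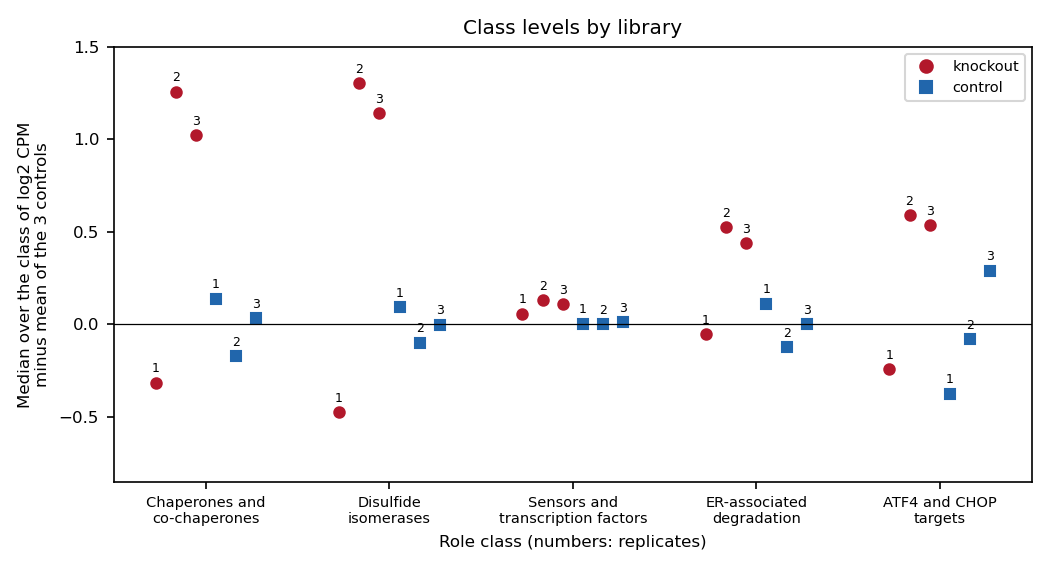
Median over the genes of each role class of log2 CPM minus the control mean, by library, knockouts left of controls. Chaperones and isomerases stood at -0.32 and -0.47 in knockout 1, at 1.26 and 1.30 in knockout 2 and at 1.02 and 1.14 in knockout 3, while sensors and factors stayed between 0.06 and 0.13 in the knockouts.

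The promoter elements shown at the start can be set beside these values as a description. The 8 tested genes with an ER stress response element had log2 fold changes of 0.36 to 1.33, all positive, with a median of 0.77, and all 8 passed as higher without knockout 1, where 10% of all genes did. The 20 tested genes whose windows had none ranged from -0.60 to 1.03, with a median of 0.34, 15 of them positive, and 10 passed as higher and 1 as lower without knockout 1, against 10% and 7.44% of all genes. The 5 genes with an ATF4 core ranged from -0.50 to 1.03, with a median of 0.23. Most genes with the ER stress response element are chaperones or isomerases, so the element and the role cannot be told apart.

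Beyond the 33 genes, lists of related genes were counted in the same fit. No gene of any of these lists passed by edgeR's adjusted p over 6 libraries (0 of 33, 25, 49, 27 and 40 tested). The shares of all genes to read their counts against are 9.32% higher and 7.09% lower at an unadjusted p under 0.05, and 10% higher and 7.44% lower after adjustment without knockout 1. Of 33 other folding and disulfide genes, 5 were higher at an unadjusted p under 0.05, the median log2 fold change was 0.37, and 20 passed as higher without knockout 1. The smallest p-values were those of Dnajc10, an ER reductase, at 94.5 ± 45.9 CPM in the knockout and 44.9 ± 1.16 CPM in the control (SD, n = 3 each), and of Pdia5, an isomerase, at 20.9 ± 11.8 CPM in the knockout and 8.87 ± 0.459 CPM in the control. Of 49 genes of translocation into and export from the ER, 3 were higher unadjusted, a share below the 9.32% of all genes, the median was 0.30, and 28 passed as higher without knockout 1, against 10% of all genes. Here the smallest were Sec61g, a subunit of the translocation channel, at 2.85 ± 0.309 CPM in the knockout and 1.94 ± 0.094 CPM in the control, and Surf4, a cargo receptor, at 717 ± 135 CPM in the knockout and 525 ± 54.6 CPM in the control.

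Of 25 other degradation genes, 0 were higher and 1 was lower unadjusted, against 9.32% and 7.09% of all genes, with a median of 0.17, and 10 passed as higher without knockout 1. The smallest p-values were those of Rnf5, a ubiquitin ligase, at 37.3 ± 1.02 CPM in the knockout and 44.8 ± 4.41 CPM in the control, and Os9, a lectin of the HRD1 complex, at 275 ± 65.4 CPM in the knockout and 208 ± 19.9 CPM in the control. Of 27 regulators, 1 was higher unadjusted, a share below the 9.32% of all genes, the median was 0.05, and 4 passed as higher without knockout 1. Creb3, an ER-bound transcription factor, had 50.8 ± 6.74 CPM in the knockout and 39.7 ± 0.684 CPM in the control, and Bcl2l11 (BIM), a pro-apoptotic target of CHOP, had 8.56 ± 1.28 CPM in the knockout and 11.3 ± 1.47 CPM in the control.

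Of 40 further ATF4 and CHOP targets, 6 were higher and 1 was lower unadjusted, against 9.32% and 7.09% of all genes, with a median of 0.27. Without knockout 1, 12 passed as higher, against 10% of all genes, and 3 as lower, near the 7.44% of all genes. DESeq2 called 1 of the 40 higher over 6 libraries, where it called 3.6% of all genes higher, and 1 lower, where it called 1.95% lower. These were also the genes with the smallest p-values. They were Jdp2, a repressor related to ATF3, at 10.5 ± 5.65 CPM in the knockout and 2.28 ± 0.41 CPM in the control, and Aldh18a1, an enzyme of proline synthesis, at 93.0 ± 16.4 CPM in the knockout and 160.1 ± 29.7 CPM in the control.

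Secretory cell types hold much ER, so their markers were summed in each library. The 14 goblet cell markers summed to 19169, 21008 and 21059 CPM in the knockouts, against 26161, 19851 and 22402 CPM in the controls. The groups overlapped in CPM. As a share of counts the goblet markers took 2.00%, 1.91% and 1.97% in the knockouts, against 2.65%, 2.12% and 2.33% in the controls, so every knockout was below every control on that scale. Agr2, a disulfide isomerase on this list that was singled out after its values were seen, had 137, 442 and 354 CPM in the knockouts, against 175, 180 and 164 CPM in the controls, so knockouts 2 and 3 were above every control and knockout 1 below. The 12 Paneth cell markers summed to 1053, 1468 and 798 CPM in the knockouts, against 1698, 6077 and 2426 CPM in the controls. Every knockout was below every control for the Paneth sum.

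The 11 B and plasma cell markers summed to 560, 341 and 579 CPM in the knockouts, against 115, 154 and 253 CPM in the controls. All knockouts were above all controls for this sum. Sdc1, a plasma cell marker that epithelium also expresses, was singled out after its values were seen. It had 46.8, 134 and 129 CPM in the knockouts, against 64.1, 61.7 and 60.9 CPM in the controls. Its 134 CPM is part of the 341 CPM summed in knockout 2. Sdc1 was the exception on this list, since in every other gene of it knockout 1 was above knockout 2. Ms4a1, for example, had 11.5, 2.61 and 3.40 CPM in the knockouts. No marker on these 3 lists was at 0 in all libraries.

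Other lists differed between the groups too. The 10 T cell markers summed to 384, 932 and 483 CPM in the knockouts, against 329, 220 and 191 CPM in the controls, and the 9 macrophage markers to 44.6, 29.3 and 35.4 CPM in the knockouts, against 13.4, 13.5 and 15.7 CPM in the controls. The 9 tuft cell markers summed to 243, 21.8 and 31.6 CPM in the knockouts, against 277, 235 and 296 CPM in the controls, so that knockout 1 alone resembled the controls, as it did for Hspa5 and Ddit3. The 9 stem and cycling cell markers summed to 331, 792 and 668 CPM in the knockouts, against 399, 803 and 408 CPM in the controls, and knockout 1 was the lowest of the 6. The 10 enteroendocrine markers summed to 308, 435 and 344 CPM in the knockouts, against 265, 219 and 233 CPM in the controls, and every knockout was above every control. The 7 smooth muscle markers summed to 303, 266 and 336 CPM in the knockouts, against 262, 245 and 257 CPM in the controls, most of it from Mylk, at 273, 265 and 273 CPM in the knockouts and 260, 244 and 254 CPM in the controls. The mean log2 level of those 7 genes relative to the control mean was 3.01, -0.50 and 3.97 in the knockouts, against -0.47, -0.11 and 0.58 in the controls, so knockout 2 was the lowest of the 6. The 8 fibroblast markers summed to 290, 196 and 256 CPM in the knockouts, against 326, 302 and 302 CPM in the controls. Most of that sum came from Fbln1, at 238, 183 and 228 CPM in the knockouts and 320, 295 and 284 CPM in the controls. The mean log2 level of those 8 genes relative to the control mean was 2.08, -0.16 and 1.69 in the knockouts. In the controls it was -0.56, -0.31 and 0.87, so knockouts 1 and 3 were above every control on that scale. Gm26917 and Gm42418, which overlap ribosomal RNA sequence and serve as a sign of RNA composition, took 4.89%, 5.91% and 5.43% of counts in the knockouts, against 2.91%, 2.16% and 2.57% in the controls. The part that cell makeup and RNA composition play in the results for the 33 genes was not tested.

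**Figure D5:**
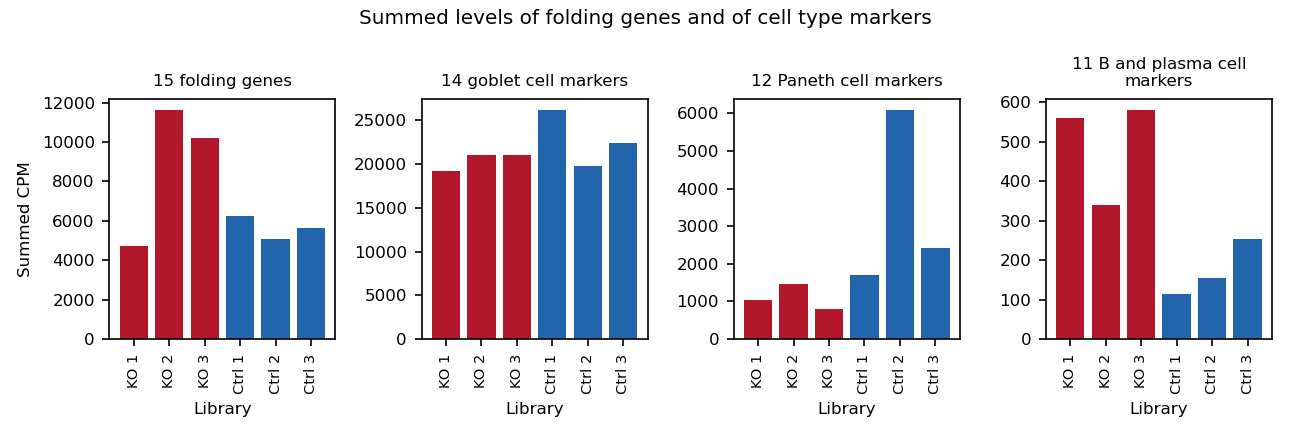
Summed CPM of the 15 chaperones and isomerases, the 14 goblet, the 12 Paneth and the 11 B and plasma cell markers, by library, knockouts left of controls. The folding genes are high in knockouts 2 and 3 alone, goblet markers overlap, Paneth markers are lower in every knockout, and B and plasma cell markers are higher in every knockout.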

How the data were processed

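The values the authors deposited are raw counts of reads for each gene in each library. The submitters' processing notes name mm10, STAR 2.5.0a, Trim Galore, FastQC and bcl2fastq 2.17, and the labels name both poly-A selection and a kit that removes ribosomal RNA. Which counter, strand setting and annotation were used is not given in the sources used here; 53229 identifiers (97.8%) matched GENCODE mouse release 21.

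From the deposited counts, the fit over all genes used R 4.3.3 and edgeR 4.0.16 (trimmed-mean scaling, default filter with minimum count 10, two-sided quasi-likelihood F test, genotype alone, Benjamini-Hochberg adjustment, threshold 0.05). DESeq2 1.42.0 and limma 3.58.1 (voom) were alternatives, beside another scaling, other filters, sex, a replicate block and leaving out each library. Log2 CPM levels used a prior count of 2. The scripts were first tested on simulated data. Replicate numbers came from the titles, and the labels give no litter or batch for them. Same-numbered libraries had weakly correlated deviations (0.117, 0.119 and 0.149) and other pairs -0.143 to 0.00929. The deviations were taken within each group of 3, so these correlations are not independent. Both libraries numbered 1 were male by Xist and both numbered 3 female. Whether the numbers mark a pairing was not tested, and the block was run only as an alternative. Members, lists and named genes (the most abundant, highest and lowest of each role, those under an unadjusted p of 0.05 or not overlapping, and the sensors) were chosen with earlier results of these data known. Protein sequences were not used here.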

Additional observations from a re-analysis of the deposited data

How the results depend on the processing

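With 3 libraries per genotype, leaving out knockout 1 moved the counts most. Over all genes edgeR called 9, which became 16 with library totals, which moved the median log2 fold change of all genes to -0.10, 284 with no filter, 836 by DESeq2, 5 by limma-voom, 0 with the replicate block, 4 with sex from the series text and 306 in the libraries female by Xist alone. Leaving out 1 library gave 0 (knockout 3 or any control) to 2700 (knockout 1). Of the 33 genes, 0 were called higher and 0 lower by edgeR. Higher calls became 1 with no filter (Atf3, 0.694% of all genes), 2 by DESeq2 (3.6%), 6 in the female libraries (1%) and 0 to 20 with 1 library left out (10% without knockout 1), and lower calls 0 to 1. At an unadjusted p, the 8 higher became 17 with no filter (8.25% of all genes), 16 by DESeq2 (10.4%), 5 by limma-voom (8.42%), 4 with the replicate block (9.32%), 4 with sex by Xist as a term (7.27%), 19 in the female libraries (13.1%) and 4 to 25 with 1 library left out (17.9% without knockout 1). The 0 lower became 1 by limma-voom (8.37%), 3 in the female libraries (9.21%) and 0 to 2 with 1 library left out. The female libraries include 1 control, so those counts assume its spread and support nothing. The replicate block changed no other call on the 33 genes. The 25 higher at an unadjusted p without knockout 1 include Derl3. It passed that filter only through knockouts 2 and 3, so its place in that count supports nothing. Both settings by Xist were chosen after seeing the data. With sex by Xist as a term the median log2 fold change of the 32 genes was 0.26, against 0.47 without it. For the 15 chaperones and isomerases the median was 0.39, against 0.80, and Hspa5 had 0.64, against 1.17. Sizes therefore depend on that term more than directions do.

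Of the 22 tested genes named with values in every library, 18 kept their direction in every setting run. Ern1 became -0.047 with library totals and ran from -0.011 (without control 3) to 0.19 with 1 library left out. Ern2 ran from -0.12 to 0.040 and turned positive without knockout 2, control 2 or control 3. Atf6 became 0.00056 with no filter and 0.10 in the female libraries, and ran from -0.097 to 0.073 (without knockout 1). Chac1 ran from -0.99 to 0.95 (without control 3). The cause was not tested. Derl3 and Chac1 had the fewest counts, which limits both.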
